A study of Mus musculus with 9 samples.

Results

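Radial glia, the neural progenitors that line the ventricle of the embryonic cortex, were followed through 10 genes for their structure and their glial functions: Nes, Vim, Fabp7, Slc1a3, Prom1, Cdh2, Ptn, Dbi, Ddah1 and Mt3. They are the listed radial glia markers that are not transcription factors, each matched by symbol to 1 Ensembl identifier among the 57010 of the count table. All 10 had more than 10 reads in every embryo and so were among the 13680 genes tested. RNA was sequenced from the microdissected cortex of single mouse embryos at E12.5, with 1 library per embryo and 3 embryos of each genotype. In Cnot3 cKO embryos (cKO), both floxed alleles of Cnot3, a subunit of the CCR4-NOT deadenylase that shortens mRNA poly(A) tails, were removed by Emx1-Cre. In Cnot3;Trp53 dcKO embryos (dcKO), Emx1-Cre removed floxed Trp53, the gene of the p53 tumor suppressor, as well. Control embryos (Ctrl) are labelled WT, and whether they carried Cre or floxed alleles was not stated for these samples. Emx1-Cre acts in radial glia of the dorsal telencephalon and in their progeny, and vessels, meninges, blood and microglia in the dissected tissue lie outside this lineage.

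Radial glia span the cortical wall with a long process, divide at the ventricle, and give rise to intermediate progenitors and neurons. Their fibers are built on the intermediate filament proteins nestin and vimentin, their apical end feet are held together by N-cadherin junctions, and prominin-1 sits on protrusions of the apical membrane. Like astrocytes, which come from the same lineage later, they take up glutamate and carry lipid-binding proteins. Several of these genes are not particular to radial glia, and vimentin in particular is also made by vessel and meningeal cells.

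The genes lie on 9 chromosomes. In GENCODE M21 on GRCm38, Nes (ENSMUSG00000004891.17) covers chr3:87971078-87980451 on the plus strand and Vim (ENSMUSG00000026728.10) covers chr2:13573927-13582826 on the plus strand. Prom1 (ENSMUSG00000029086.16) covers chr5:43993620-44102032 and Ptn (ENSMUSG00000029838.12) covers chr6:36714929-36810220, both on the minus strand. Promoter windows from RefSeq (GRCm38.p6) were found for 9 members, in 11 windows, and none was found for Cdh2. The first 220 bases of each window, from 250 to 31 bases before the start site, were searched on both strands for 7 motifs: the TATA box TATAAA, the box named CCAAT, the GC box GGGCGG, the RBPJ core TGGGAA, the SOX core ACAAAG, and the metal response element core as TGCACNC or as TGCGCNC. The Nes and Vim sequences are shown because the mean RNA levels of these filament partners lay on opposite sides of Ctrl in both mutants, although neither passed the main test. Matches are in capitals.

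Nes, chr3:87970843-87971062, plus strand: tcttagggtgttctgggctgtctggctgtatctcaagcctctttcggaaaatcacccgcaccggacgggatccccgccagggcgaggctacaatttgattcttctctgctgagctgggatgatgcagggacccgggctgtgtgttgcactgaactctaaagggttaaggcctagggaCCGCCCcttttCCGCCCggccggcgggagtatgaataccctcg
Vim, chr2:13574205-13574234, plus strand: ttccgggtccccATTGGctggctcgctcgg

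The Nes stretch held GGGCGG, the GC box, at 2 places on its minus strand and no other motif of the set. The Vim window held CCAAT at 2 places, of which the one nearest the start is printed, and no other motif of the set. Its printed stretch is short because an annotated Vim transcript already opens before this window. Among all 32851 windows in the table, 28.5% held GGGCGG and 31.0% held CCAAT. The GC box was also present before Prom1 and Slc1a3, and CCAAT before Fabp7, Slc1a3, Prom1, Ptn and Dbi. TGGGAA, bound by the Notch effector RBPJ, was present before Fabp7, Prom1 and Ptn and in 19.4% of all windows. TATAAA was present before Slc1a3 and in 9.95% of all windows, and ACAAAG before no member and in 14.8%. The core of the metal response element was present as TGCACNC before Ddah1 (9.28% of all windows) and as TGCGCNC before Dbi (10.6%), but in neither form in the Mt3 window.

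Total counts ranged from 21193798 to 45073349 per embryo. Values are given as CPM, reads scaled to a common library size with trimmed-mean (TMM) factors, and all changes are log2 fold changes from edgeR's quasi-likelihood test in one model of 9 embryos. Cnot3 was 98.2 to 117.3 CPM in Ctrl, 14.6 to 17.3 in cKO, and 7.33, 48.2 and 19.0 in dcKO 1, 2 and 3. Trp53 was 15.1, 110 and 20.6 CPM in the same dcKO embryos, against 215 to 254 in Ctrl. Thus dcKO 2 kept more RNA of both deleted genes than the other dcKO embryos, and it alone had reads of the subpallial genes Gsx2 (2.45 CPM) and Nkx2-1 (0.46 CPM). The dcKO value of each member is therefore also given without this embryo. In bulk tissue, fewer cells of a type and less RNA per cell cannot be told apart.

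In Ctrl, Vim had the highest level per length, 280 ± 35.5 CPM per kilobase of exon (SD, n = 3), and Nes followed at 164 ± 4.88. Fabp7 stood at 135 ± 11.9, Dbi at 94.6 ± 3.34, Cdh2 at 63.8 ± 2.41 CPM per kilobase, and Ptn ranged from 48.9 to 61.2. The remaining members were lower, with Ddah1 at 24.1 ± 0.50, Prom1 at 20.3 ± 0.60, Mt3 at 12.3 ± 4.35 and Slc1a3 at 9.55 ± 0.37. The ranges of neighbors in this order did not overlap except those of Mt3 and Slc1a3. Dividing by the longest protein-coding transcript kept Vim first (606 ± 76.8) but placed Dbi (237 ± 8.36) and Fabp7 (192 ± 16.8) ahead of Nes (171 ± 5.11). Gfap, the filament of mature astrocytes, was at most 0.18 CPM in any embryo, and the oligodendrocyte gene Olig1 had no read. Of the same marker list, Pdgfra was 15.5 to 24.6 CPM in Ctrl, 17.6 to 27.6 in cKO and 8.28 to 19.4 in dcKO, with a lower mean in dcKO. Aqp4 (0.50 to 1.59 CPM in Ctrl, 1.64 to 2.86 in the mutants) and Aldh1l1 (0.11 to 0.50 and 0.84 to 2.65 CPM) were above Ctrl in all 6 mutants.

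**Figure D1:**
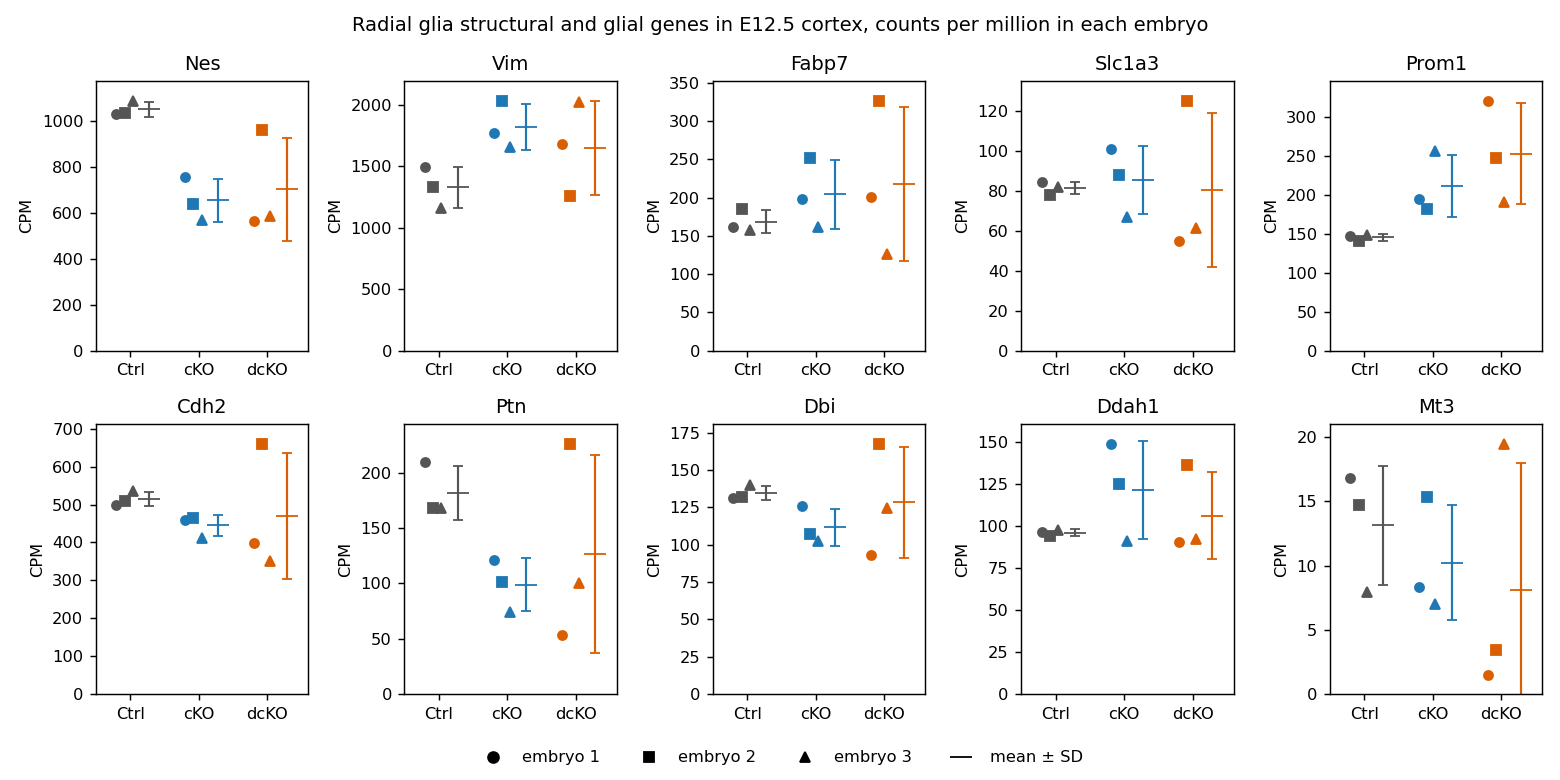
CPM (y axis, from 0) of the 10 genes in each embryo, by genotype (x axis); symbols mark embryo 1, 2 and 3, and bars give mean ± SD (n = 3; the lower bar of Mt3 in dcKO runs below the axis). All 6 mutant embryos lie below all Ctrl embryos for Nes and above them for Prom1, and dcKO 2 lies apart from dcKO 1 and 3 for most genes.

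The first question was whether these genes changed when Cnot3 was lost, alone or together with Trp53. In cKO, 5 of 10 members were above Ctrl and 5 below, with a median log2 fold change of -0.07 against 0.0098 for all genes tested. In dcKO, 4 were above and 6 below, with a median of -0.04 against 0.11, which was -0.33 against 0.034 without dcKO 2, 0.16 against 0.13 without dcKO 1 and 0.090 against 0.11 without dcKO 3. No member was called at an adjusted p under 0.05 with an absolute log2 fold change above 1, where edgeR called 0.0146% of all genes in cKO and 0.0% in dcKO. DESeq2, which called 8.83% of genes in cKO and 8.47% in dcKO, also called 0 members. Of Cnot3, Trp53 and the p53 targets Eda2r, Cdkn1a and Ccng1, edgeR called 1 of 5 in cKO and 0 of 5 in dcKO. Even the deleted genes thus went uncalled in dcKO, so a member left uncalled is not shown to be unchanged. At an unadjusted edgeR p under 0.05, Prom1 was higher and Nes lower in each mutant. Among all genes, 15.3% were higher and 11.7% lower at this threshold in cKO, and 18.0% and 11.2% in dcKO, so a single member in each direction is near the background. DESeq2 without the fold limit passed Nes in cKO (adjusted p = 0.0413) and Prom1 in dcKO (adjusted p = 0.0181), beside 16.7% and 17.8% of genes.

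Without regard to a test, every cKO embryo was above every Ctrl embryo for Vim and Prom1, and below for Nes, Cdh2, Ptn and Dbi. The shares over all genes were 29.2% above and 28.0% below. Without cKO 3, Fabp7, Slc1a3 and Ddah1 also lay above, making 5 above (32.6% of genes) and 4 below (31.8% of genes). In dcKO, only Prom1 was above (15.6% of genes) and only Nes below (11.2% of genes). The share of all genes with every mutant embryo of both genotypes on the same side of Ctrl was not counted. Without dcKO 2, Vim joined Prom1 above (25.1% of genes) and Nes, Slc1a3, Cdh2, Ptn, Dbi and Ddah1 were below (20.3% of genes), and without dcKO 3 Fabp7 and Prom1 were above (32.2% of genes) and Nes and Mt3 below (30.6% of genes). The fit of only the 6 Ctrl and cKO embryos, which leaves out the variable dcKO group, put Nes, Ptn and Dbi lower and Vim and Prom1 higher at an edgeR adjusted p under 0.05. In that fit, 47.2% of all genes passed, and no member passed the fold limit.

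**Figure D2:**
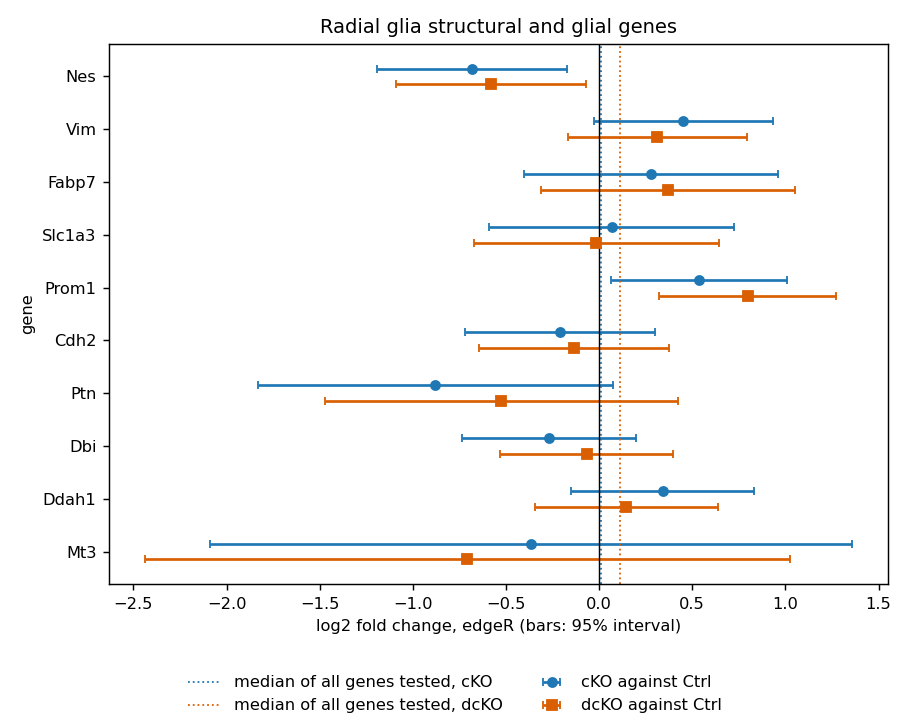
log2 fold change (x axis) of each gene (y axis) in cKO (circles) and dcKO (squares) against Ctrl, with 95% intervals from edgeR; dotted lines are medians over all 13680 genes. The intervals of Nes and Prom1 exclude 0 in both mutants, on opposite sides.

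Nes encodes nestin, the intermediate filament protein used to mark neural progenitors. It measured 1029.8, 1033 and 1085 CPM in Ctrl, 753, 639.7 and 568 in cKO, and 562, 958 and 584 in dcKO. All 6 mutant embryos were below all 3 Ctrl embryos, and dcKO 2 was nearest to them. The difference from Ctrl was -0.68 ± 0.23 in cKO (log2 fold change ± standard error, adjusted p = 0.098 in edgeR's quasi-likelihood test) and -0.58 ± 0.23 in dcKO (adjusted p = 0.129), both under 0.05 before adjustment. Leaving out dcKO 2 gave -0.88 in dcKO (edgeR adjusted p = 0.00907), which passed the test on p, as did 18.0% of genes, but not the fold limit. Leaving out dcKO 1 gave -0.44 and leaving out dcKO 3 gave -0.47 (edgeR adjusted p = 0.355 and 0.0944). The exact two-sided permutation p was 0.1 in each comparison, the smallest that 3 embryos against 3 allow. With an offset for GC content the differences were -0.50 in cKO and -0.09 in dcKO, with every cKO embryo still below Ctrl and dcKO embryos on both sides.

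Vim encodes vimentin, which forms filaments together with nestin. It measured 1496, 1332 and 1159 CPM in Ctrl, 1768, 2029.9 and 1659 in cKO, and 1679, 1255 and 2019 in dcKO. Every cKO embryo was above Ctrl, as were dcKO 1 and 3, while dcKO 2 lay within the Ctrl range. Neither difference passed the test, at 0.45 ± 0.22 for cKO (log2 ± standard error, adjusted p = 0.208 in edgeR) and 0.31 ± 0.22 for dcKO (adjusted p = 0.353). Without dcKO 2, Vim in dcKO was 0.47 (edgeR adjusted p = 0.0919). It was 0.30 without dcKO 1 and 0.14 without dcKO 3 (edgeR adjusted p = 0.52 and 0.528). With the GC offset it was 0.54 in cKO, where it passed the adjusted p (0.035) among 13.8% of all genes, and 0.51 in dcKO. Vimentin is also abundant in mesenchyme and vessels, and markers of both were summed. The summed level of 8 mesenchymal and meningeal markers was 796 to 871 CPM in Ctrl, 469 to 713 in cKO and 335 to 527 in dcKO. The collagen genes Col3a1, Col1a1 and Col1a2 were the 3 of these markers below Ctrl in every cKO embryo, while 4 of the 7 tested were above Ctrl on average in cKO, with a median log2 fold change of 0.00078. In dcKO 6 of the 7 were below, with a median of -0.33. That of 8 endothelial markers was 224 to 299, 217 to 307 and 151 to 157 CPM.

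Because both filament genes were read in the same library, their ratio does not depend on library scaling. CPM of Vim over Nes was 1.45, 1.29 and 1.07 in Ctrl, 2.35, 3.17 and 2.92 in cKO, and 2.99, 1.31 and 3.46 in dcKO. The ratio was higher than in any Ctrl embryo in 5 of the 6 mutants, with dcKO 2 inside the Ctrl range. The means were 1.27 ± 0.19 in Ctrl, 2.81 ± 0.42 in cKO and 2.58 ± 1.13 in dcKO (SD, n = 3), with exact two-sided permutation p of 0.1 and 0.2 against Ctrl. The ratio was formed after the values were seen. Over the 9 embryos the log2 levels of Nes and Vim correlated with r = -0.82, a description in which genotype and library are shared by the points.

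**Figure D3:**
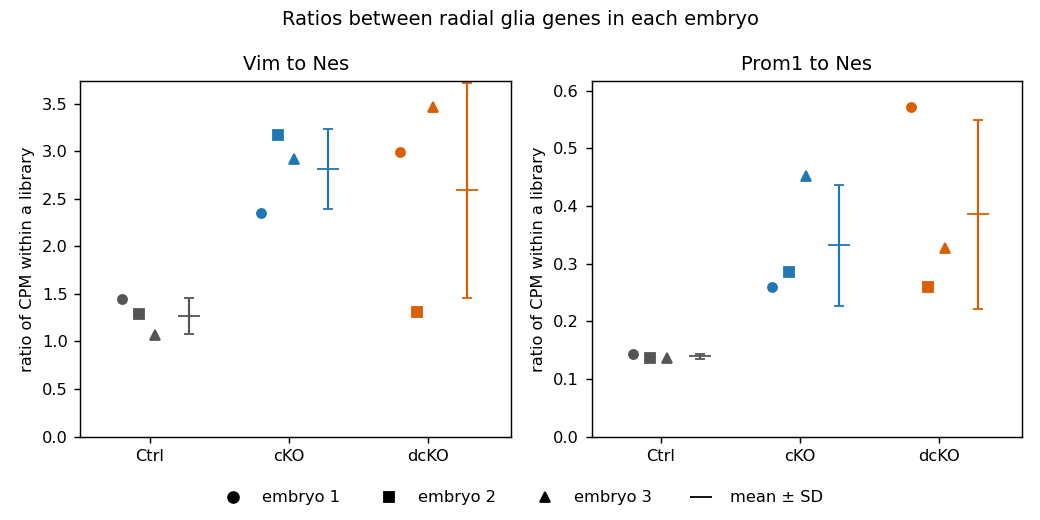
Ratio of CPM within each library (y axis, from 0) for Vim over Nes and Prom1 over Nes, by genotype (x axis); symbols mark the embryos and bars give mean ± SD (n = 3). Vim over Nes stays at or below 1.45 in Ctrl and dcKO 2 and is 2.35 or more in the other mutants, and Prom1 over Nes is 0.144 or less in Ctrl and 0.259 or more in all mutants.

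The other intermediate filament genes that passed the filter were 4 of 5, at lower levels. Ina, the neuronal filament alpha-internexin, was 79.6 to 101 CPM in Ctrl and 52.6 to 68.1 in cKO, with no overlap (log2 fold change -0.49, edgeR adjusted p = 0.151, under 0.05 before adjustment). It was 56.1 to 81.3 CPM in dcKO (-0.39, edgeR adjusted p = 0.213). The neurofilament gene Nefl was 4.65 to 6.50 CPM in Ctrl and 6.77 to 15.0 in dcKO (0.98, edgeR adjusted p = 0.146, under 0.05 before adjustment). Nefm and Synm overlapped with Ctrl in each mutant.

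Prom1 encodes prominin-1 (CD133), a cholesterol-binding protein of apical membrane protrusions. It measured 148, 141 and 148 CPM in Ctrl, 195, 182 and 257 in cKO, and 321, 248 and 191 in dcKO. The Ctrl embryos lay close together (146 ± 4.31, SD, n = 3), and all 6 mutants were higher. Prom1 RNA exceeded Ctrl by 0.54 ± 0.21 on the log2 scale in cKO (± standard error, adjusted p = 0.141 in edgeR) and by 0.80 ± 0.21 in dcKO (adjusted p = 0.0581), both under 0.05 before adjustment only. Leaving out dcKO 2 gave 0.81 in dcKO (edgeR adjusted p = 0.0397, among 18.0% of genes), leaving out dcKO 3 gave 0.96 (0.00132, among 48.9% of genes) and leaving out dcKO 1 gave 0.59 (0.182). With the GC offset Prom1 was 0.30 and 0.40, with all 6 mutants still above Ctrl. Prom1 over Nes within a library was 0.136 to 0.144 in Ctrl, 0.259 to 0.452 in cKO and 0.259 to 0.571 in dcKO (exact two-sided permutation p = 0.1 for each, also formed after the values were seen).

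Like Prom1, the summed markers of the cortical hem and choroid plexus, the tissue at the dorsal midline, were above Ctrl in every mutant embryo. The sum over 6 of them was 4.36 to 16.8 CPM in Ctrl, 38.8 to 136 in cKO and 31.2 to 151 in dcKO. Ttr, the defining transcript of choroid plexus, had no read in Ctrl and was 5.91, 10.9 and 32.8 CPM in cKO and 56.9, 3.42 and 6.17 in dcKO. Lmx1a was 2.70 to 6.89 CPM in Ctrl and 10.3 to 32.0 in the mutants, and Wnt2b was 0.43 to 5.85 and 6.46 to 27.2 CPM (2.69 in cKO and 2.36 in dcKO on the log2 scale, edgeR adjusted p = 0.0802 and 0.0969). The embryos highest for Ttr in each mutant, cKO 3 and dcKO 1, were also the highest for Prom1. The other embryos did not keep this order: cKO 1 had the lowest marker sum of cKO (38.8 CPM) but more Prom1 than cKO 2 (90.5 CPM of markers), and dcKO 2 had the lowest sum of dcKO (31.2 CPM) but more Prom1 than dcKO 3 (62.1 CPM). The part of these cells in the Prom1 values was not tested. Prom2, the other prominin gene, was at most 0.78 CPM and was not tested.

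Cdh2 encodes N-cadherin, which joins radial glia at their apical junctions. It measured 499, 508 and 536 CPM in Ctrl, 459, 464 and 412 in cKO, and 397, 659 and 351 in dcKO. The cKO embryos were below Ctrl by little, while dcKO embryos lay on both sides. By edgeR, cKO differed by -0.21 ± 0.23 (log2 ± standard error, adjusted p = 0.588) and dcKO by -0.13 ± 0.23 (adjusted p = 0.72). Without dcKO 2 the latter was -0.46 (edgeR adjusted p = 0.0446, among 18.0% of genes), and without dcKO 3 it was 0.04.

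Of 10 other cadherins and junction partners, 6 were above and 4 below Ctrl in each mutant. At an unadjusted edgeR p under 0.05, 2 were higher and 2 lower in cKO, and 3 were higher and 1 lower in dcKO, near the shares of all genes (15.3% and 11.7% in cKO, 18.0% and 11.2% in dcKO). Cdh4, encoding R-cadherin, was 69.6, 73.9 and 73.2 CPM in Ctrl, 32.5, 33.1 and 40.3 in cKO, and 19.4, 53.8 and 41.2 in dcKO, below Ctrl in every mutant embryo. Its log2 fold change was -1.03 in cKO and -0.92 in dcKO (edgeR adjusted p = 0.0776 and 0.0923; DESeq2 adjusted p = 0.0201 and 0.0357). Cdh8 was 3.21 to 4.51 CPM in Ctrl, 6.95 to 9.92 in cKO and 8.40 to 13.9 in dcKO (1.18 and 1.58, edgeR adjusted p = 0.0585 and 0.0502; DESeq2 adjusted p = 0.00415 and 0.000121). Cdh8 was thus above Ctrl in all 6 mutants, from a low level. Cdh11 had a higher mean in cKO (0.57, edgeR adjusted p = 0.153). Ctnnb1, encoding the beta-catenin that binds cadherin tails, was 1362 to 1411 CPM in Ctrl, 948 to 1034 in cKO and 860 to 1286 in dcKO. Its difference in cKO was -0.47 (edgeR adjusted p = 0.141). Cdh6 overlapped with Ctrl in each mutant, with 53.7 CPM in dcKO 2 against 15.5 and 10.6 in the other dcKO embryos.

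Ptn encodes pleiotrophin, a heparin-binding growth factor secreted by radial glia. It measured 210.2, 168 and 168 CPM in Ctrl, 122, 101 and 73.8 in cKO, and 53.1, 226 and 101 in dcKO. The cKO embryos and dcKO 1 and 3 were all below Ctrl, and dcKO 2 was above every other embryo. With all embryos, the log2 difference was -0.88 ± 0.43 (standard error) between cKO and Ctrl, at an adjusted p of 0.215 in edgeR, and -0.53 ± 0.43 between dcKO and Ctrl, at 0.428. Without dcKO 2, the dcKO value of Ptn was -1.25 ± 0.30 (edgeR adjusted p = 0.0231), past both limits among 18.0% of genes under the adjusted p. In cKO the same fit gave an edgeR adjusted p of 0.0454, among 18.4% of genes. The dcKO value shrank to -0.16 without dcKO 1 and to -0.38 without dcKO 3 (edgeR adjusted p = 0.829 and 0.5). With the number of the embryo code as a block, Ptn in cKO was -1.12. That value rests on cKO 2 beside Ctrl 1 (-1.05) and cKO 3 beside Ctrl 2 (-1.19), too few embryos to give its p-value weight.

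Mdk, encoding midkine, the only relative of pleiotrophin, was 458, 424 and 277 CPM in Ctrl, 134, 150.2 and 135 in cKO, and 63.4, 87.5 and 286 in dcKO. Every cKO embryo was below Ctrl, and dcKO 3 lay inside the Ctrl range. Mdk differed by -1.47 in cKO (log2; edgeR adjusted p = 0.0917, DESeq2 adjusted p = 0.0179) and -1.40 in dcKO (edgeR adjusted p = 0.0933, DESeq2 adjusted p = 0.0208). The dcKO embryo nearest to Ctrl was therefore dcKO 2 for Nes but dcKO 3 for Mdk. Ptprz1, encoding a receptor phosphatase that binds pleiotrophin, was 83.8 to 102 CPM in Ctrl, 94.4 to 149 in cKO and 82.0 to 257 in dcKO, and neither difference passed (0.45 and 0.68, edgeR adjusted p = 0.468 and 0.255). The dcKO value rests on dcKO 2, without which it was 0.00010. Sdc3, a syndecan that binds the factor, had a lower mean in dcKO (-0.92, edgeR adjusted p = 0.167). Alk was at most 0.62 CPM and was not tested.

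Fabp7 encodes the brain lipid-binding protein of radial glia. It measured 162, 186 and 158 CPM in Ctrl, 199, 252 and 162 in cKO, and 201, 326 and 126 in dcKO. Both mutants overlapped with Ctrl, and the dcKO embryos spanned the lowest and the highest value of all 9. The log2 fold change was 0.28 in cKO and 0.37 in dcKO (edgeR adjusted p = 0.59 and 0.437), with a 95% interval of -0.40 to 0.96 in cKO. In cKO it was 0.098 without cKO 2. In dcKO it was -0.048 without dcKO 2 and 0.64 without dcKO 3, where it passed the adjusted p (edgeR, 0.0346) among 48.9% of genes. Fabp5, its relative, was 351 to 418 CPM in Ctrl, 317 to 412 in cKO and 329 to 379 in dcKO, with differences of -0.08 and -0.14 (edgeR adjusted p = 0.80 and 0.586). Fabp3 was 0.86 to 0.94 CPM in Ctrl, 3.58 to 6.47 in cKO, and 4.55, 0 and 7.12 in dcKO, and was not tested because of the zero in dcKO 2.

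Slc1a3 encodes GLAST, the glutamate transporter of radial glia and astrocytes. It measured 84.4, 78.2 and 82.0 CPM in Ctrl, 101, 88.0 and 67.2 in cKO, and 55.2, 125 and 61.7 in dcKO. Both mutant groups lay on either side of Ctrl, and the differences were 0.07 and -0.02 (edgeR adjusted p = 0.903 and 0.977). The 95% intervals, -0.59 to 0.72 in cKO and -0.67 to 0.64 in dcKO, leave room for changes of either sign. Without dcKO 2, Slc1a3 in dcKO was -0.49 ± 0.18 (edgeR adjusted p = 0.0978), with the remaining dcKO embryos below Ctrl. Slc1a4, a neutral amino acid transporter of the same family, was 81.5 to 90.9 CPM in Ctrl, 55.5 to 65.9 in cKO and 53.7 to 71.5 in dcKO. It was below Ctrl in all 6 mutants (-0.55 and -0.46, edgeR adjusted p = 0.0776 and 0.111; DESeq2 adjusted p = 0.0203 and 0.0494). Slc1a2 and Slc1a5 had adjusted p-values of 0.638 and 0.378 in cKO in edgeR, and Slc1a1 was at most 3.58 CPM and was not tested.

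Dbi encodes the acyl-CoA-binding protein, whose peptides also bind GABA receptors. It measured 131, 132 and 140.0 CPM in Ctrl, 126, 107 and 102 in cKO, and 93.3, 167 and 125 in dcKO. The cKO embryos were below Ctrl and the dcKO embryos on both sides, with differences of -0.27 and -0.07 (edgeR adjusted p = 0.437 and 0.848). Without dcKO 2 the dcKO value was -0.31 (edgeR adjusted p = 0.213). Its relatives Acbd3 and Acbd5 differed the other way. Acbd3, a Golgi protein, was 37.5 to 38.5 CPM in Ctrl, 60.9 to 65.3 in cKO and 56.7 to 80.5 in dcKO (0.75 and 0.81, edgeR adjusted p = 0.0515 and 0.0502; DESeq2 adjusted p = 0.00329 and 0.00166). Acbd5, a peroxisomal protein, was 28.2 to 31.9 CPM in Ctrl, 46.3 to 50.1 in cKO and 41.2 to 66.1 in dcKO (0.67 and 0.89, edgeR adjusted p = 0.0776 and 0.0507). All 6 mutants were above Ctrl for each of them. Acbd6 and Tspo, the mitochondrial binding partner of Dbi, overlapped with Ctrl in each mutant.

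Ddah1 encodes an enzyme that breaks down asymmetric dimethylarginine, an inhibitor of nitric oxide synthases. It measured 96.6, 94.0 and 97.9 CPM in Ctrl, 149, 125 and 91.0 in cKO, and 90.5, 137 and 92.1 in dcKO. Both mutants overlapped with Ctrl, and the differences were 0.34 and 0.15 (edgeR adjusted p = 0.351 and 0.679). Without cKO 1 the cKO value was 0.17. Without dcKO 2 the dcKO value was -0.079 (edgeR adjusted p = 0.805). Ddah2, the second enzyme of this kind, was 259, 198 and 112 CPM in Ctrl, 60.5, 82.1 and 66.8 in cKO, and 37.6, 43.6 and 229 in dcKO. It was below Ctrl in every cKO embryo (-1.44, edgeR adjusted p = 0.169), and in dcKO dcKO 3 lay inside the Ctrl range (-0.87, edgeR adjusted p = 0.358). Prmt1, which places asymmetric methyl groups on arginine, was 473 to 492 CPM in Ctrl, 358 to 367 in cKO and 220 to 463 in dcKO, below Ctrl in all 6 mutants (-0.42 and -0.63, edgeR adjusted p = 0.311 and 0.133).

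Mt3 encodes the brain metallothionein, which binds zinc. It measured 16.8, 14.7 and 7.93 CPM in Ctrl, 8.32, 15.3 and 7.01 in cKO, and 1.44, 3.40 and 19.5 in dcKO. The embryos of 1 genotype spanned a wide range, most of all in dcKO, and the groups overlapped. The differences of -0.36 and -0.71 had standard errors of 0.77 and 0.78 (edgeR adjusted p = 0.796 and 0.563). In dcKO it was -0.21 without dcKO 1 and -0.35 without dcKO 2. Without dcKO 3, the dcKO value of Mt3 was -2.44 ± 0.51 (edgeR adjusted p = 0.00339), past both limits among 48.9% of genes under the adjusted p. With the number of the embryo code as a block, it was 1.29, in the other direction. That value compares dcKO 3 alone with Ctrl 3, so it holds no spread between dcKO embryos. Mt1, the widely expressed relative, was highest in dcKO 3, as Mt3 was, and lowest in dcKO 2, with 12.4 to 24.1 CPM in Ctrl, 26.7 to 36.3 in cKO, and 13.8, 3.98 and 80.3 in dcKO. Mt2 was 0.36 to 0.61 CPM in Ctrl, 3.83 to 4.45 in cKO, and 3.19, 0 and 4.88 in dcKO, and was not tested because dcKO 2 and 2 of the Ctrl embryos had 10 reads or fewer.

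**Figure D4:**
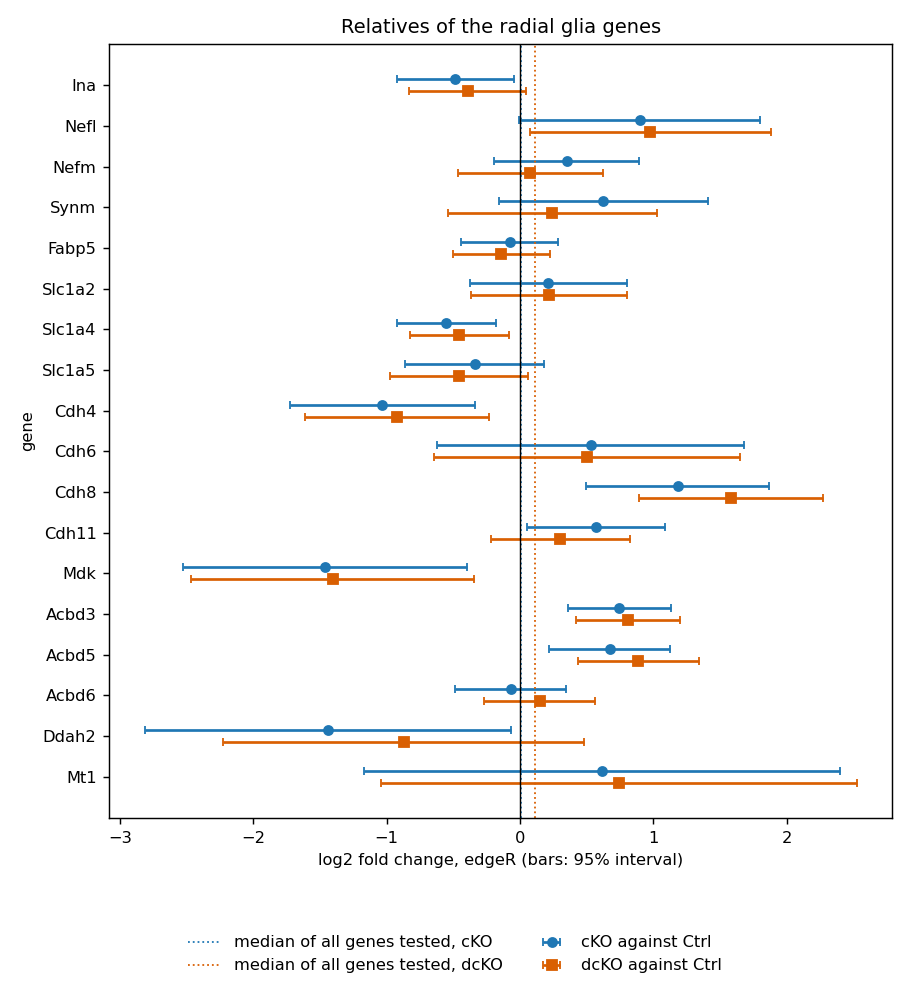
log2 fold change (x axis) of the relatives of the radial glia genes that were tested (y axis) in cKO (circles) and dcKO (squares) against Ctrl, with 95% intervals from edgeR. Mdk and Cdh4 lie below 0 and Cdh8, Acbd3 and Acbd5 above it in both mutants, each with an interval that excludes 0.

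The members were next compared between dcKO and cKO, a comparison that asks which values depend on p53 when Cnot3 is absent. No member was called by edgeR (0.0146% of all genes) or DESeq2 (0.381% of all genes), and none had an unadjusted edgeR p under 0.05 (2.05% of genes higher, 2.38% lower). None had groups that did not overlap (2.62% of genes above, 3.63% below). The median difference was 0.08, against 0.07 for all genes, and the single differences ran from -0.34 for Mt3 to 0.36 for Ptn. For Nes the difference was 0.10 (95% interval -0.41 to 0.61), for Vim -0.14 (-0.62 to 0.34) and for Prom1 0.26 (-0.21 to 0.73). Without dcKO 2, Slc1a3 and Cdh2 in dcKO were below cKO in every embryo (6.78% of genes). Without dcKO 3, Mt3 was -2.07 (edgeR adjusted p = 0.0198, among 26.3% of genes). With the number of the embryo code as a block it was 1.88. No dcKO and cKO embryo share a number, and dcKO 3 alone stands for dcKO in that value. Cdkn1a, a p53 target, was 68.1 to 124 CPM in cKO, 8.99 to 27.9 in dcKO and 16.6 to 17.3 in Ctrl.

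**Figure D5:**
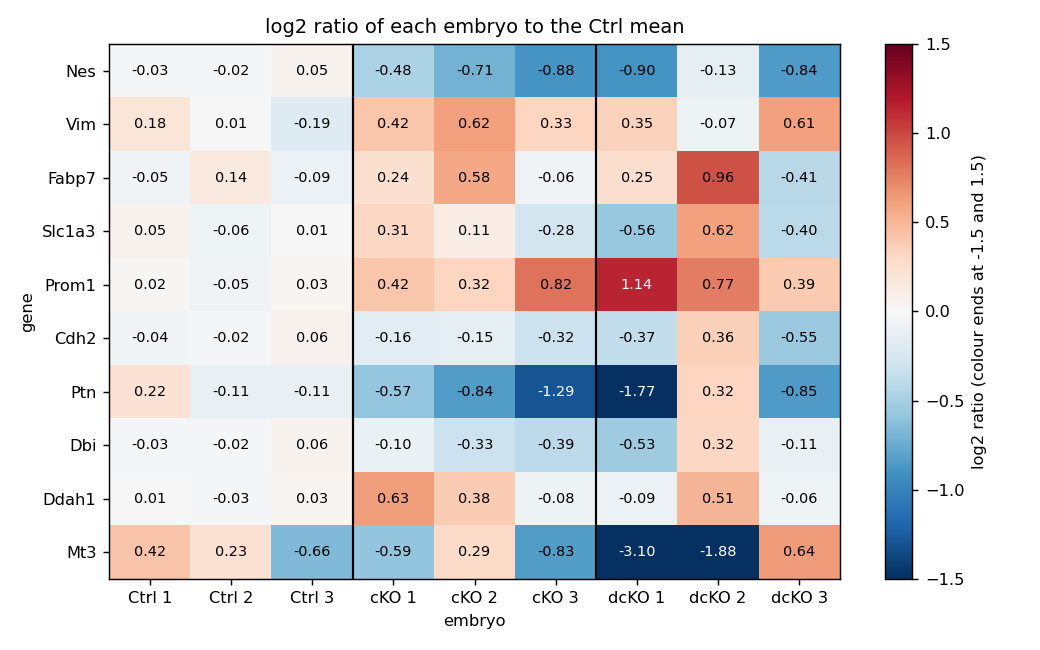
log2 ratio of each embryo (x axis) to the mean of Ctrl for each gene (y axis), printed in the cell and colored from -1.5 (blue) to 1.5 (red). In dcKO 2, Cdh2, Ptn, Dbi and Slc1a3 are above the Ctrl mean while they are below it in dcKO 1 and 3.

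The members did not vary as one block. The sum of all 10 was 3583 to 3874 CPM in Ctrl, 3399.6 to 4006 in cKO and 3453 to 4105 in dcKO, and Nes and Vim together make up most of it. Over the 9 embryos, Ptn correlated with Dbi (r = 0.92) and with Nes (r = 0.91), and Slc1a3 with Cdh2 (r = 0.84) and Ddah1 (r = 0.83). Prom1 and Mt3 ran opposite (r = -0.81). Of all 13680 genes, those most like the mean of the standardized member levels over 9 embryos were Nrcam (r = 0.985), Insm1 (0.959), Pdp1 (0.956), Eomes (0.943) and Kcnk10 (0.923). Nrcam was 47.9 to 50.9 CPM in Ctrl, 31.8 to 51.6 in cKO, and 26.8, 76.7 and 34.0 in dcKO. All these correlations are descriptions over the same 9 libraries. For Prom1 and Mt3, dcKO 1 is the extreme point, and dcKO 2 is the highest of the 9 embryos for Ptn, Dbi, Slc1a3 and Cdh2.

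The embryo codes hold a number that a mutant and a Ctrl embryo share in 3 cases, and the labels do not say whether it stands for a litter, a day or something else. Within these pairs, Nes was -0.69 and -0.86 on the log2 scale in 2 cKO embryos and -0.89 in dcKO 3. Vim was 0.44, 0.32 and 0.80, Prom1 0.30, 0.87 and 0.37, and Ptn -1.05, -1.19 and -0.74 in the same pairs. With Cdh2 (-0.10, -0.30 and -0.61) and Dbi (-0.29, -0.37 and -0.17), 6 of 10 members had in every pair the direction of the pooled comparison, as did 47.9% of all genes. The pairs are part of the pooled samples. Fabp7 (0.64, -0.20 and -0.32) and Mt3 (-0.13, -1.07 and 1.29) did not keep 1 direction.

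Beside the structural and glial members, 12 transcription factors of radial glia gave other counts. In cKO, 11 of the 12 were below Ctrl, with a median of -0.51, 5 of them with an unadjusted edgeR p under 0.05 (11.7% of all genes were lower at this threshold) and 10 with no overlap (28.0% of all genes). Hes5, a Notch target, was 22.0 to 37.8 CPM in Ctrl and 6.75 to 10.9 in cKO (-1.83, edgeR adjusted p = 0.0694, DESeq2 adjusted p = 0.00543). Lhx2, a cortical selector gene, was 467 to 854 CPM in Ctrl and 275 to 317 in cKO (-1.19, edgeR adjusted p = 0.0514, DESeq2 adjusted p = 0.00164). Sox3, a transcription factor of neural progenitors, was 93.5 to 156 CPM in Ctrl and 56.4 to 67.1 in cKO (-1.07, edgeR adjusted p = 0.117, DESeq2 adjusted p = 0.046). In dcKO, 7 of the 12 were below, with a median of -0.08, 1 had an unadjusted edgeR p under 0.05 (11.2% of all genes) and 0 were apart from Ctrl (11.2% of all genes below). In dcKO 1, 2 and 3, Hes5 was 5.08, 12.6 and 28.1 CPM, Lhx2 was 342, 420 and 623 CPM, and Sox3 was 38.2, 42.0 and 115 CPM, so dcKO 3 lay inside the Ctrl range for each. Emx1, the gene whose promoter drives Cre, was 43.8 to 120 CPM in Ctrl, 20.4 to 23.7 in cKO, and 7.94, 17.7 and 80.9 in dcKO. The difference between the lists was not tested.

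Marker levels of other cell types also differed between embryos. The summed level of 8 cycling-cell markers was 2995 to 3469 CPM in Ctrl, 3046 to 3515 in cKO and 2846 to 4680.2 in dcKO, with the highest value in dcKO 2. That of 7 intermediate progenitor markers was 468 to 611, 399 to 479 and 357 to 703, and that of 11 neuronal markers 1578 to 2091, 1159 to 1644 and 954 to 1909, each highest within dcKO in dcKO 2. Microglial markers summed to 40.9 to 50.3 CPM in Ctrl, 44.8 to 94.7 in cKO and 15.9 to 36.2 in dcKO, and erythroid markers to 6246 to 8774, 7709 to 11725 and 4202 to 5734. Astrocyte and oligodendrocyte precursor markers summed to at most 31.8 CPM, and subpallial ones to 9.12 CPM in dcKO 2 and at most 4.54 elsewhere. Their part in the member values was not tested.

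The base composition of the members was set beside their differences because the GC offset moved several of them. GC content of the main transcript was 55.5% for Nes, 53.9% for Vim, 45.3% for Prom1, 42.4% for Ptn and 41.4% for Fabp7, with a median of 50.0% over 13561 tested genes. Mt3 was the extreme, at 62.3% (above 98.8% of genes). At the third codon position, GC was 55.7% for Nes and 71.7% for Vim, with a median of 60.5%. With the offset, Slc1a3 (-0.15) and Mt3 (0.45) changed sign in cKO, and Fabp7 (-0.24) and Ddah1 (-0.02) in dcKO, all 4 without passing the test. Vim, Ptn and Prom1 kept their direction in both mutants, and Ptn reached -1.14 in cKO (edgeR adjusted p = 0.0697).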

How the data were processed

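RNA sequencing of E12.5 cortex from 9 single embryos was re-analysed. The authors made stranded poly(A) libraries, trimmed reads with Cutadapt, aligned them to mm39 with STAR and deposited raw counts per gene from featureCounts, with no normalization. Embryos were grouped by their labels. The 13680 genes whose count exceeded 10 in each of the embryos were tested in R 4.3.3 with edgeR 4.0.16 (TMM factors, quasi-likelihood test, no covariates), and p-values were adjusted by Benjamini-Hochberg over all of them. Calls required an adjusted p below 0.05 together with a log2 fold change beyond 1 in either direction. The members, lists and tests were chosen with earlier results of these data known. Named genes were all members, their paralogues and, of each related list, up to 4 genes with the largest cKO difference among those under an unadjusted p of 0.05, while marker lists are given as sums with single genes. Other genes named, the ratios, Mt2, Fabp3 and the per-embryo remarks were chosen after their values were seen. Coordinates, lengths and GC content were read from GENCODE M21 (GRCm38), an older build than mm39, for 52029 matched identifiers. Total counts per embryo (21193798 to 45073349) set the counting precision, and replicate spread exceeds it. Alternatives were DESeq2 1.42.0, limma 3.58.1 with sample weights, other size factors and filters, the 6 embryos compared, each embryo left out, replicate number or the number in the embryo code as a block, and a loess GC offset (span 0.3). Scripts were tested on simulated data. Embryos of the same replicate number deviated with a mean r of -0.169 (9 pairs, from -0.54 to 0.13). That gives no sign of a pairing but cannot exclude one. Figures were drawn with matplotlib 3.10.9 in Python 3.11.15 from tables made with pandas 2.3.3 and NumPy 2.4.6.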

Additional observations from a re-analysis of the deposited data

How the results depend on the processing

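Mt3 had the fewest reads of the members, and its counting error is the largest. No member was called by edgeR or DESeq2, and calls of members appeared only under 4 alternatives. With limma weights they were Prom1 (1.07), Ptn (-1.49) and Mt3 (-2.84) in dcKO. When single embryos were left out they were 0 to 1 in dcKO and 0 to 1 between dcKO and cKO (Ptn without dcKO 2, Mt3 without dcKO 3). The remaining alternative was the number of the embryo code as a block. This code block rests on 3 pairs, and what the number stands for is not stated. Only the pair of dcKO 3 and Ctrl 3 holds a dcKO embryo, so calls under this block measure no spread between dcKO embryos. Over all genes, calls in cKO were 2 at first, 424 with upper-quartile factors, 1206 with DESeq2, 1868 with limma, 813 without a filter, 1850 in the 6 embryos compared, 735 with the GC offset, 1986 with the code block and 0 to 1476 with an embryo left out. In dcKO they were 0 at first, 1157 with DESeq2, 3668 with limma, 692 without a filter, 113 with the GC offset, 1633 with the code block and 0 to 3252 with an embryo left out. Between dcKO and cKO they were 2 at first, 52 with DESeq2, 27 with limma, 8 without a filter, 0 in the 6 embryos compared, 11 with the GC offset, 1583 with the code block and 0 to 1241 with an embryo left out. The replicate block called 0 genes in cKO, 0 in dcKO and 0 between them. With the GC offset added it called 4 in cKO, with no member among them. The shared replicate numbers gave no sign of a pairing.

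The median of the members in dcKO was -0.36 with limma and ran from -0.33 to 0.16 with an embryo left out, and between dcKO and cKO from -0.22 to 0.22. Members whose embryos did not overlap numbered 3 in dcKO with the GC offset (10.3% of all genes above and 15.3% below), 2 to 8 in dcKO with an embryo left out (8 without dcKO 2, where 25.1% and 20.3% of genes lay apart), and 0 to 2 between dcKO and cKO (2 without dcKO 2, 5.95% and 6.78%). Nes, Vim, Prom1 and Ptn kept their direction against Ctrl under every alternative run in both mutants, but not their size. In dcKO, Nes ran from -0.89 to -0.09, Vim from 0.14 to 0.80, Prom1 from 0.37 to 1.07 and Ptn from -1.49 to -0.16. No member had passed the main test, and the cause of turned signs was not tested. Signs turned for the following differences. Against Ctrl in cKO these were Slc1a3 (-0.15 with the GC offset, -0.16 with the replicate block added, -0.078 with the code block) and Mt3 (0.45 with the GC offset, 0.42 with the replicate block added). In dcKO they were Fabp7 (-0.24 with the GC offset and with the replicate block added, -0.32 with the code block), Ddah1 (-0.018, -0.026 and -0.088 under these, -0.022 with limma) and Mt3 (1.29 with the code block). Between dcKO and cKO they were Nes (-0.0048), Fabp7 (-0.020) and Cdh2 (-0.033) with upper-quartile factors, and Nes (-0.19), Cdh2 (-0.12), Ptn (-0.70) and Dbi (-0.20) with limma. Fabp7 was -0.28 there with the GC offset and -0.26 with the replicate block added. With the code block Nes (-0.12), Vim (0.42), Fabp7 (-0.54), Prom1 (-0.22), Cdh2 (-0.41) and Mt3 (1.88) turned. With single embryos left out, Slc1a3 in cKO ran from -0.071 to 0.20. In dcKO, Slc1a3 ran from -0.49 to 0.20, Dbi from -0.31 to 0.12, Fabp7 from -0.048 to 0.64, Ddah1 from -0.079 to 0.25 and Cdh2 from -0.46 to 0.038. Between dcKO and cKO, Slc1a3 ran from -0.55 to 0.13, Mt3 from -2.07 to 0.15, Nes from -0.19 to 0.24, Fabp7 from -0.32 to 0.37, Cdh2 from -0.25 to 0.25, Vim from -0.31 to 0.024, Ptn from -0.37 to 0.72 and Dbi from -0.037 to 0.39.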
